A study of Mus musculus with 6 samples.

Results

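The array held 77 miRNAs from 30 numbered families that are known as markers of tissues other than fat: 18 of muscle, 11 of blood, 15 of nervous tissue, 9 of liver and gut, 2 of endothelium, 8 of pancreas and 14 of epithelium. They were taken by family number from the names of the 1247 mouse miRNAs on the array, with no filter on signal. Both arms of a hairpin are included where the array had both. The 77 miRNAs were, however, chosen with earlier results of these data known. They were measured in 3T3-L1, a single mouse line of embryonic fibroblasts that can be driven to become adipocytes by hormones. All 6 samples were collected on day 8 of that conversion and all had received isobutyl-methylxanthine, dexamethasone, insulin and rosiglitazone, then insulin alone, then plain serum medium. In the 4 control samples nothing else was added. In the other 2 samples interleukin-6 (IL-6), a cytokine made by immune cells, muscle and fat, was present at 1 ng/ml from the start of differentiation and was renewed daily. Separate cultures are not stated for the samples of either group, and the p-values below therefore measure only the spread between these arrays, which may be technical. All arrays lay on 1 slide, the controls in row 1 and the IL-6 arrays in row 2, so row and group cannot be told apart. Columns 3 and 4 of the slide held an array of each group.

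A miRNA is cut from a hairpin with 2 arms. The arm that is loaded into Argonaute, the guide, pairs with messenger RNAs through its seed, bases 2 to 8, and lowers their stability and translation. The other arm is mostly degraded. Several families are switched on so strongly in 1 lineage that they serve as its signature. Examples are miR-1, miR-133 and miR-206 under the myogenic factors, miR-223 in granulocytes, miR-451 in erythroid cells, miR-9 and miR-124 in neurons, miR-122 in hepatocytes, miR-126 in endothelium, miR-217 in acinar cells, and the miR-200 family in epithelium.

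Of the 77 miRNAs, 6 were detected and the other 71 were not. Detection of a probe on an array required that the share of usable spots flagged as well above background reached 0.5, and 1 such probe sufficed for a miRNA. The 6 detected sequences are shown first, since every comparison of IL-6 with control rests on them. All sequences are from RefSeq (GRCm38.p6), which matched 61 of the 77 miRNAs, 5 of them under a newer spelling such as miR-219a-5p, and capitals mark the seed.
miR-128-3p: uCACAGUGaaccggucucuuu
miR-218-5p: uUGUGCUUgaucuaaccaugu
miR-219-5p: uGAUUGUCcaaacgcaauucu
miR-192-5p: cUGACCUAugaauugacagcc
miR-194-5p: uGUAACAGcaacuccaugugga
miR-205-5p: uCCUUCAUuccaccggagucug

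These 6 miRNAs have 6 distinct seeds and so belong to 6 target families. miR-128-3p, abundant in neurons, is encoded at chr1:128202404-128202424 (+ strand, within the bounds of R3hdm1) and at chr9:112118644-112118664 (- strand, within Arpp21). miR-218-5p, known from motor neurons and from bone-forming and vascular cells, is encoded at chr5:48223966-48223986 (+ strand) within Slit2 and at chr11:35616840-35616860 (+ strand) within Slit3. miR-219-5p, which drives oligodendrocyte maturation, is encoded at chr2:29845689-29845709 (- strand, within Cercam) and at chr17:34025052-34025072 (- strand, within no listed gene). miR-192-5p and miR-194-5p, which mark liver, gut and kidney, share a cluster: Mir192 (mature sequence at chr19:6264857-6264877, + strand) and Mir194-2 (mature sequence at chr19:6264658-6264679, + strand) have hairpins 115 bases apart. A further copy of miR-194-5p, at chr1:185313325-185313346 (+ strand, within Iars2), has a hairpin 195 bases from that of Mir215. miR-205-5p, a marker of skin and other layered epithelia, lies at chr1:193507503-193507524 (- strand) within the noncoding gene Mir205hg. Here within a gene means inside its bounds, and the strand of the gene is not given. An array cannot tell which copy of a miRNA was transcribed.

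The next set shows a guide of each class in which nothing was detected, and the miR-200 family, whose 5 guides fall into 2 seed groups. None of these guides was detected on any array.
miR-206-3p (muscle): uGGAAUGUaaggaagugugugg
miR-223-3p (blood): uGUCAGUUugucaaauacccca
miR-126-3p (endothelium): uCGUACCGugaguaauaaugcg
miR-217-5p (pancreas): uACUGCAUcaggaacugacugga
miR-141-3p (epithelium): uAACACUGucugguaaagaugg
miR-200a-3p (epithelium): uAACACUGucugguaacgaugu
miR-200b-3p (epithelium): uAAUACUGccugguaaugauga
miR-200c-3p (epithelium): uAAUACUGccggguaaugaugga
miR-429-3p (epithelium): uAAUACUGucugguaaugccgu
Within the group with the seed AACACUG, miR-200a-3p and miR-141-3p differ by C17A and U22G, counted from 1 at the 5′ end with the base of miR-200a-3p first. Within the group with the seed AAUACUG, miR-200b-3p and miR-429-3p differ by C9U, A19C, U20C and A22U in the same notation. Among the 61 sequences there were 53 distinct seeds, and 7 seeds were shared by more than 1 miRNA.

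**Figure D1:**
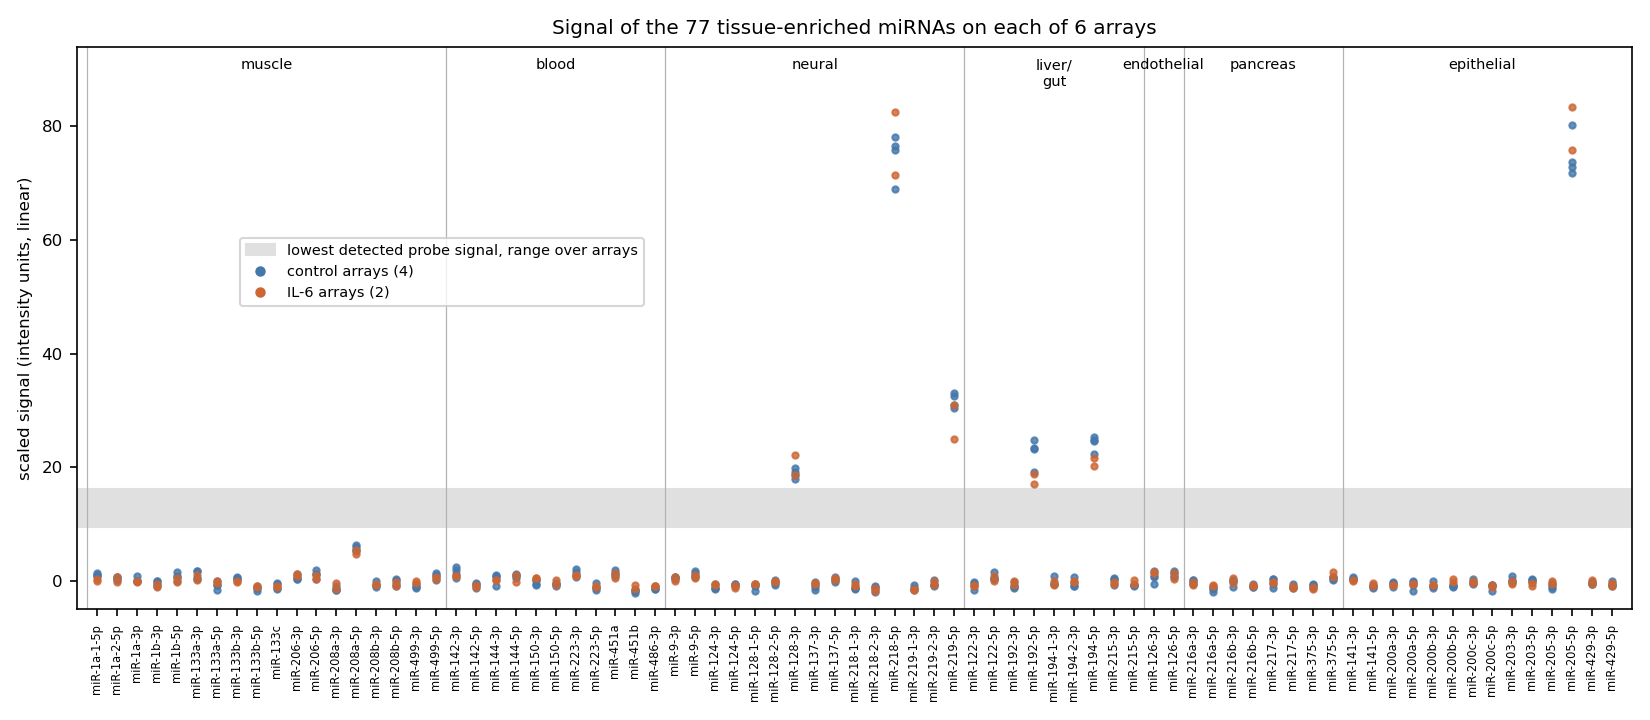
Scaled signal of each of the 77 miRNAs on the 4 control arrays (blue) and the 2 IL-6 arrays (orange), linear axis, grouped by tissue class; the grey band spans the lowest signal of a detected probe over the 6 arrays, 9.43 to 16.2. All points of 6 miRNAs lie above the band, those of the other 71 lie below it, and among these only miR-208a-5p stands clear of 0. The band refers to single probes, whereas the points are means over the probes of a miRNA. The lowest such mean of a detected miRNA was 4.06 to 6.25 by array. miR-208a-5p exceeded it on control arrays 1, 2 and 4 and on IL-6 array 1, so signal alone does not separate detected from undetected.

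Each miRNA was read by 40 spots on an array. Its signal is given in scaled intensity units, after division by the 75th percentile of the probes detected on all arrays. The signals serve to compare arrays for 1 miRNA. They do not rank different miRNAs, because probes differ in how well they bind. The 6 miRNAs were detected on all 6 arrays and none of the 77 was detected on some arrays only. That is 7.79% detected on every array, beside 264 of all 1247 miRNAs (21.2%), and 92.2% detected on none, beside 930 (74.6%). The number detected was 6 on every control array and 6 on both IL-6 arrays, a difference of 0 (exact two-sided permutation p = 1 over 15 splits, smallest possible p 0.0667). With the same count on every array, all splits give 0, so this p was fixed and carries no evidence about IL-6. Over all miRNAs the controls detected 284, 294, 268 and 287, and both IL-6 arrays were above them at 313 and 300. The arrays also differed in brightness. Before scaling, the 75th percentile was 347, 396, 248 and 343 in controls and 440 and 369 with IL-6. Whether the counts follow brightness or group was not tested. In a bulk culture, fewer cells of a type and less RNA per cell cannot be told apart, so a faint signal does not say how many cells carried it.

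No muscle miRNA was detected. The 18 signals of this class included the guides miR-1a-3p, miR-133a-3p and miR-206-3p, which promote and stabilise muscle differentiation, and miR-208a-3p and miR-499-5p, which are carried in introns of myosin heavy chain genes. miR-206-3p read 0.298, 1.20, 0.222 and 0.586 in controls 1 to 4, and with IL-6 it read 0.770 and 1.12 (arrays 1 and 2, the order used throughout). The groups overlap, and all values are below 4.06, the lowest signal of a detected miRNA on any array. Without miR-208a-5p the muscle signals reached at most 1.89.

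miR-208a-5p, the opposite arm of a heart miRNA from within Myh6, was undetected as well, but was the only one of the 71 whose probes all stayed above the negative controls on every array.
miR-208a-5p: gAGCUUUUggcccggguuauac
It read 6.02, 5.16, 5.47 and 6.33 in controls and 5.36 and 4.68 with IL-6. The groups overlap. Its probes were 14 and 15 bases long. The well-above-background flag was set for only 1 spot, on IL-6 array 1. The guide arm from the same hairpin, miR-208a-3p, was detected on no array.

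The blood class was also undetected in all 11 members. Of the miR-486 family these included miR-486-3p but not the listed guide miR-486-5p. The class held both arms of miR-142, a miRNA of all white-cell lineages, as well as miR-144-3p and miR-451a of the erythroid locus, miR-150-5p of mature lymphocytes, and miR-223-3p. miR-142-3p read 0.539, 1.10, 2.38 and 1.83 in controls and 0.776 and 0.765 with IL-6, all IL-6 values lying within the control range. miR-223-3p read 1.97, 1.05, 1.54 and 0.561 in controls and 0.934 and 0.869 with IL-6. Neither miRNA had a spot well above background on any array.

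Both endothelial miRNAs and all 8 pancreatic ones stayed undetected. The endothelial pair comes from 1 hairpin within Egfl7. miR-126-5p read 0.651, 1.65, 1.42 and 0.793 in controls and 0.329 and 1.39 with IL-6. The acinar guides miR-216a-5p and miR-217-5p and the islet guide miR-375-3p, a regulator of insulin release, were all silent. The opposite arm miR-375-5p had a mean of 0.648, and 1 of its probes exceeded the highest negative control on 5 arrays without a flagged spot.

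Of the 15 neural miRNAs, 3 were detected and 12 were not. The neuronal guides miR-9-5p, miR-124-3p and miR-137-3p, which help neural precursors leave the cell cycle and mature, were undetected. miR-9-5p read between 0.382 and 1.72 with a median of 0.868. The detected 3, miR-128-3p, miR-218-5p and miR-219-5p, were therefore not accompanied by the guides that are most specific to neurons.

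Liver and gut contributed 2 detected miRNAs of 9. miR-122-5p, which makes up most of the miRNA in hepatocytes, read between 0.0269 and 1.49 and was not detected. The detected miR-192-5p has a close relative, miR-215-5p, which has the same seed and was not detected.
miR-192-5p: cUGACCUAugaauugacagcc
miR-215-5p: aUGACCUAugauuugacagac
The relatives differ by C1A, A12U and C20A, with the base of miR-192-5p first and positions counted from the 5′ end. The longer probes for them, written 5′ to 3′ with capitals where the probe would mispair with the other miRNA, were as follows.
miR-192-5p probe: gGctgtcaaTtcataggtc
miR-215-5p probe: gTctgtcaaAtcataggt
Each probe thus has 2 mismatches to the other miRNA. Of the 7 shared seeds, only that of this pair included a detected miRNA.

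In the epithelial class, 1 of 14 miRNAs was detected. The miR-200 family, which holds down the mesenchymal factors Zeb1 and Zeb2, was silent in all 5 guides, as was miR-203-3p of the epidermis. miR-141-3p read between -0.0175 and 0.707. miR-205-5p, which also targets Zeb factors, was detected on every array without them.

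All 6 detected miRNAs were arms listed as guides. That is 6 of 33 listed guides (18.2%), beside 21.2% of all miRNAs on the array, and 0 of the 44 miRNAs not so listed. The 44 are not all opposite arms. They also hold relatives from the same arm as a listed guide, such as miR-133b-3p and miR-208b-3p. The share of guide and opposite arms over the whole array was not computed. All 10 opposite arms from the hairpins of the 6 detected miRNAs were undetected, with signals between -1.92 and 0.742.

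The undetected signals lay mostly below those of the negative controls. On each array 7 negative-control probes gave between 980 and 986 usable spots, and none of these spots was well above background on any array. The lowest negative-control probe read between -0.00124 and 1.08 by array and the highest between 1.69 and 3.35. Of the 171 probes for undetected miRNAs, between 114 and 153 per array were below the lowest negative-control probe, and their median was between -0.640 and -0.332. Of the 171 probes for undetected miRNAs, between 2 and 6 per array were above the highest. Those of miR-208a-5p were among them on all 6 arrays, the probe of miR-375-5p on 5, and probes of miR-126-3p, miR-133a-3p and miR-223-3p on 1 array each. The lowest signal of a probe that was called was 9.43 to 16.2 by array. Averaged over its probes, the lowest detected miRNA read 4.06 to 6.25. Since calls rest on flagged spots, these are the lowest values called and no fixed limits. Amounts that leave spots unflagged were not detectable here.

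**Figure D2:**
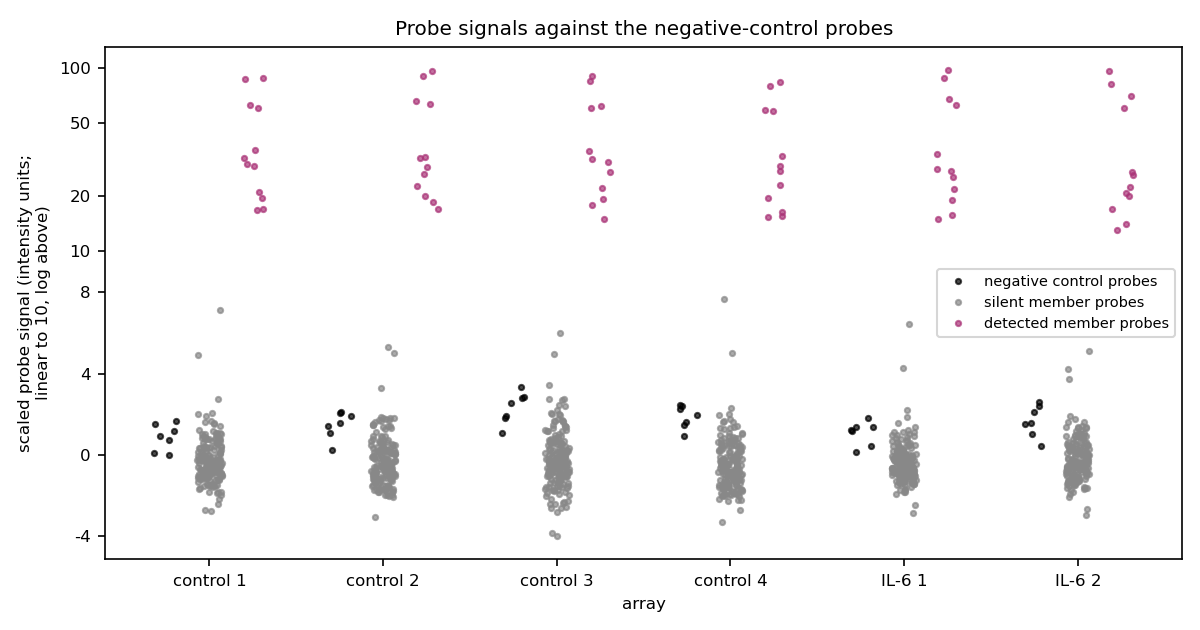
Scaled probe signal (linear up to 10, logarithmic above) on each array for 7 negative-control probes (black), 171 probes of undetected miRNAs (grey) and 12 probes of the 6 detected miRNAs (magenta). Most grey points lie below the black ones on every array, and the lowest magenta point of an array lies between 13.1 and 17.1.

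Comparison lists describe other miRNAs in these cells. They were chosen with earlier results of these data known, so high shares among them are no independent support. Over all miRNAs on the array, 21.2% were detected on all 6 arrays. All 12 listed miRNAs of fibroblasts and mesenchymal cells, such as miR-21a-5p, miR-143-3p and miR-199a-3p, and all 8 listed miRNAs of fat cells, such as miR-103-3p, miR-30a-5p and miR-378a-3p, were detected on all 6 arrays, though none of them is found in these cells alone. Another 20 miRNAs are linked to muscle, blood, nerve, liver, endothelium or epithelium but lie outside the 30 families, and 14 of them were detected. Of these 20, 6 also stand in the fibroblast or fat lists, and all 6 were detected. Of the 14 in neither list, 8 were detected. Detected epithelial entries were miR-182-5p, miR-183-5p and miR-96-5p, as well as miR-31-5p, which is also in the fibroblast list. Of the 6 neural entries only miR-7a-5p was detected. Of the 3 blood entries, miR-155-5p and miR-181a-5p were detected and miR-146a-5p was not. All 3 muscle, 2 liver and 3 endothelial entries were detected, though several also stand in the fibroblast or fat lists. The silence of a class above therefore covers its listed families only.

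Detection of the 6 miRNAs did not hang on single spots. For miR-205-5p, miR-218-5p and miR-219-5p every usable spot of both probes was well above background on all arrays. The dimmer probe of miR-128-3p fell to 7 of 20 spots on control array 3, where the miRNA was called through its other probe, at 80.0%. The dimmer probes of miR-192-5p and miR-194-5p were lowest at 63% and 65%, both on IL-6 array 2, while their brighter probes stayed at 100%. The signal of the 6 miRNAs in the scanner software's own summary was between 6.77 and 13.5 times its error estimate.

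**Figure D3:**
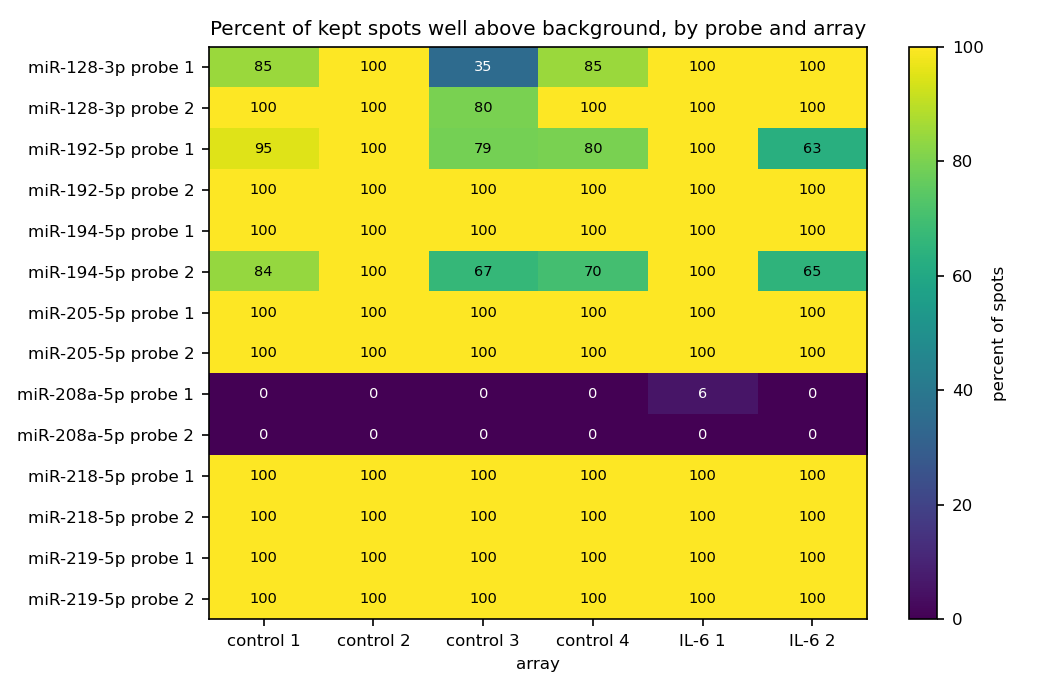
Percent of usable spots well above background for each probe of the 6 detected miRNAs and of miR-208a-5p, by array; the colour runs from 0 to 100%. Rows of miR-205-5p, miR-218-5p and miR-219-5p are at 100% throughout, the lowest cell of a detected miRNA is 35% (miR-128-3p, control array 3), and miR-208a-5p has a single cell above 0.

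All probes for the detected miRNAs reached the 3′ end of their targets, and the longer probe of miR-219-5p covered its full length. Those of miR-194-5p and miR-205-5p were 15 and 16 bases long and left most of the seed unread, whereas those of miR-128-3p, miR-218-5p and miR-219-5p were 19 to 21 bases long. Against 1673 other mouse miRNAs, the longest run that a probe target shared was 9 bases for miR-128-3p (with miR-682) and for miR-192-5p (with miR-215-5p), 8 for miR-218-5p, miR-194-5p and miR-205-5p, and 7 for miR-219-5p. No other listed mouse miRNA therefore held a full match. The median GC content of the 6 sequences was 46.5%, beside 43.5% for the 55 undetected ones with a sequence.

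IL-6 was then compared with control for the 6 detected miRNAs. In the limma fit over all 299 tested miRNAs none of the 6 was called at an adjusted p of 0.05, where 0.334% of all tested miRNAs were called (1 of 299). At an unadjusted limma p of 0.05, 2 of the 6 passed, both lower with IL-6, where 22.7% of all tested miRNAs passed in either direction and 12.0% passed as lower. The median difference of the 6 was -0.08 on the log2 scale, with 3 above and 3 below 0, and that of all tested miRNAs was -0.02. Both IL-6 arrays lay below all controls for 2 of the 6, where 21.7% of all tested miRNAs did so. They lay above all controls for none of the 6, where 13.0% of all tested miRNAs did so, and outside the control range in either direction for 34.8%.

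The lower 2 were the clustered pair from liver and gut. miR-192-5p, which rises with p53 and with TGF-beta signalling in other settings, read 24.8, 23.4, 23.3 and 19.2 in controls and 18.8 and 17.0 with IL-6. Both IL-6 arrays were below all 4 controls, but IL-6 array 1 lay close to control array 4. The mean was 22.7 ± 2.42 (SD, n = 4) in controls and 17.9 ± 1.31 (SD, n = 2) with IL-6, a log2 difference of -0.34 ± 0.12 (SE), or 1.26-fold lower, with an unadjusted limma p of 0.0309 and an adjusted p of 0.175. The 95% interval ran from -0.63 to -0.04. The difference was -0.31 within slide column 3 and -0.18 within column 4. It shrank to -0.06 with normexp background correction (limma adjusted p = 0.722) and to -0.04 without scaling between arrays. The normexp setting added an offset of 50 to every spot, which by itself draws differences of dim miRNAs towards 0. Without scaling the median of all tested miRNAs moved by 0.28, so that shift was not particular to miR-192-5p.

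miR-194-5p, its cluster partner, read 24.6, 25.4, 24.9 and 22.3 in controls and 21.6 and 20.2 with IL-6. The groups again did not overlap, and control array 4 was again the control nearest to them. The mean was 24.3 ± 1.36 (SD, n = 4) in controls and 20.9 ± 0.998 (SD, n = 2) with IL-6. The log2 difference was -0.22 ± 0.08 (SE), or 1.16-fold lower, with a 95% interval from -0.41 to -0.02, an unadjusted limma p of 0.0365 and an adjusted p of 0.176. Within the columns it was -0.20 and -0.14. It was -0.07 with normexp background correction (offset 50) and turned to 0.08 without any scaling between arrays, where the median of all tested miRNAs moved by 0.28. Neither difference passed after adjustment.

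**Figure D4:**
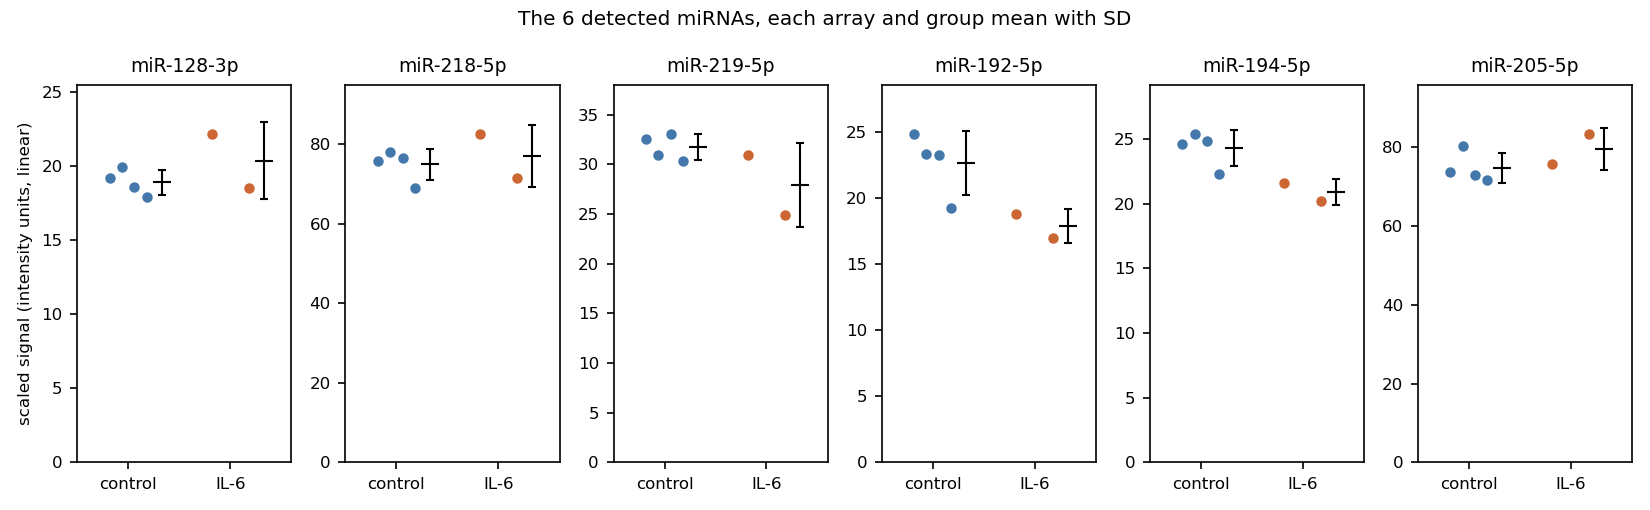
Scaled signal of the 6 detected miRNAs on the 4 control arrays (blue) and 2 IL-6 arrays (orange), each panel with its own linear axis from 0; black marks give the group mean and SD. Only for miR-192-5p and miR-194-5p do both IL-6 points lie below all control points, and the spread between the 2 IL-6 points exceeds the gap between group means for miR-128-3p, miR-218-5p, miR-219-5p and miR-205-5p.

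The 3 neural miRNAs did not pass at either threshold. miR-219-5p, a brake on growth-factor signalling in oligodendrocyte precursors, read 32.5, 30.9, 33.1 and 30.3 in controls and 30.9 and 24.9 with IL-6. One IL-6 array lay inside the control range and the other below it. The log2 difference was -0.19 ± 0.10 (SE), with a limma adjusted p of 0.311 and a 95% interval from -0.45 to 0.06. It was -0.35 without IL-6 array 1, -0.04 without IL-6 array 2 and 0.10 without scaling, where the median of all tested miRNAs moved by 0.28.

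miR-128-3p read 19.2, 19.9, 18.6 and 17.9 in controls and 22.2 and 18.5 with IL-6, so that IL-6 array 1 was above and IL-6 array 2 within the control range. Its log2 difference was 0.10 ± 0.09 (SE; limma adjusted p = 0.574), with a 95% interval from 0.914-fold to 1.26-fold. miR-218-5p, whose host genes encode the guidance ligands Slit2 and Slit3, showed the same arrangement. It read 75.8, 78.1, 76.6 and 69.1 in controls and 82.6 and 71.5 with IL-6, a log2 difference of 0.04 ± 0.09 (SE; limma adjusted p = 0.863), with a 95% interval from 0.878-fold to 1.20-fold. Its sign turned in 6 of 18 alternative settings, and that of miR-128-3p in 4. Some of the 18 change only which miRNAs are tested and could not change a sign. Without IL-6 array 1 the differences were -0.03 for miR-128-3p and -0.07 for miR-218-5p, and without IL-6 array 2 they were 0.23 and 0.14. That of miR-218-5p was also below 0 without control array 3 (-0.03) or control array 4 (-0.0066).

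The epithelial miR-205-5p read 73.8, 80.3, 72.9 and 71.8 in controls and 75.9 and 83.5 with IL-6. IL-6 array 1 was within and IL-6 array 2 above the control range. The log2 difference was 0.09 ± 0.08 (SE; limma adjusted p = 0.55), and its 95% interval ran from 0.929-fold to 1.22-fold. The difference ranged from 0.0048 (without control array 3) to 0.16 (without IL-6 array 1) with 1 array left out. It was -0.04 with normexp background correction (offset 50) and -0.02 with scaling over all probes. For these 4 miRNAs a p above the threshold does not show equal levels, and the intervals give the changes that the 6 arrays leave possible.

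The 6 miRNAs also had a pattern over the arrays that the groups do not describe. Control array 4 was the lowest of the controls for all 6 of them, and for 39.1% of all tested miRNAs. IL-6 array 2 was below IL-6 array 1 for 5 of the 6, all but miR-205-5p, and for 43.5% of all tested miRNAs. Left without control array 4, miR-192-5p passed the limma test, at a log2 difference of -0.42 and an adjusted p of 0.0437, but 31 of 300 miRNAs passed then. miR-194-5p had an adjusted limma p of 0.0715 there. Across the control arrays the coefficient of variation was 4.10% to 5.59% for 5 of the 6 miRNAs and 10.7% for miR-192-5p, the one whose value on control array 4 stood lowest against its mean. Both probes of each of the 6 miRNAs had a difference of the same sign.

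**Figure D5:**
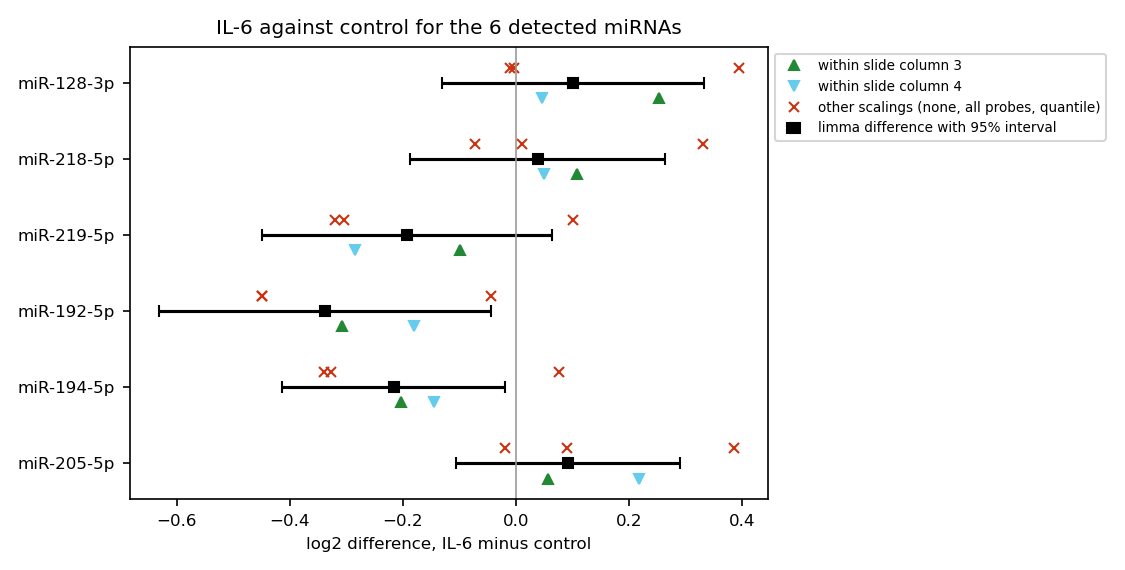
Log2 difference, IL-6 minus control, of the 6 detected miRNAs: squares with bars are the limma estimate and its 95% interval over 6 arrays, triangles the difference between the single arrays of slide columns 3 and 4, and crosses the estimate under no scaling, scaling over all probes and quantile scaling. The intervals of miR-192-5p and miR-194-5p lie below 0 (ends at -0.04 and -0.02) and the other 4 cross 0. Without scaling, miR-194-5p (0.08) and miR-219-5p (0.10) turn above 0, where the median of all tested miRNAs moved by 0.28.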

How the data were processed

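The 77 miRNAs and the comparison lists were chosen with earlier results of these data known. Labelling with Cy3 started from 100 ng of total RNA of integrity number 9.5 to 10.0, per the labels' protocols, and Agilent Feature Extraction 10.10.1.1 read the spots, per the submitters' processing notes. Per the file headers, the scanner software fitted a background over the array and subtracted it, without surrogates, so the deposited intensity values of dim spots can fall below 0. Other deposited columns are spot flags (well above background, uneven, outlying, saturated). Raw intensity and local background columns, also deposited, served 1 alternative. In the deposited series table the authors gave linear intensity values equal to the scanner's total probe signal (largest difference 0 over 52044 spots of each array). It was neither log-transformed nor centred, a 1-colour array leaves no direction open, and its column medians were 0.0937, 0.104, 0.0777 and 0.0781 for control arrays 1 to 4 and 0.0727 and 0.117 for the IL-6 arrays. Any later normalization: not given in the sources used here.

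Of 52044 spots, 2164 control spots were left out of the fit, and no spot was saturated. Uneven and outlying spots were left out, and the rest of a probe averaged. Scaling divided each array by the 75th percentile over the 502 probes that passed detection on every array. Probes of a miRNA were averaged, values under 6.25, the highest of the arrays' lowest detected signals, were set to that floor, and log2 was taken. The 299 miRNAs detected on all 4 controls or both IL-6 arrays were fitted with limma 3.58.1 in R 4.3.3 (lmFit, eBayes with a mean trend, no covariates, two-sided, Benjamini-Hochberg, threshold 0.05). The fit was tested on simulated data drawn independently for each miRNA and array. That test does not cover shifts shared across an array or slide row. No depth exists for arrays, and their number limits the precision. Alternatives covered the detection rule, background, scaling, probe summary, source of values, filter, floor, slide column, replicate number and each array left out. The background alternative, normexp, added an offset of 50 to every spot, which by itself draws log2 differences of dim miRNAs towards 0. Named are all detected miRNAs, the undetected one with the highest mean signal in each class (a rule for naming, not a ranking of levels) and the listed guides. The listed guide miR-486-5p was not among the mouse miRNAs named on the array and was not analysed here.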

Additional observations from a re-analysis of the deposited data

How the results depend on the processing

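The counts of 6 detected and 71 undetected miRNAs were the same with a share of 0.25 or 0.75 of spots and with the scanner software's own flag. The difference in detected miRNAs between groups was 0 under these rules. It was also 0 without each array in turn and within slide columns 3 and 4, but equal counts on every array fixed that outcome. Leaving out 1 array at a time gave between 0 and 1 called miRNAs among the 6, the 1 being miR-192-5p without control replicate 4; every other alternative gave 0. Of 108 alternative values, 14 changed sign: 6 for miR-218-5p, 4 for miR-128-3p, 2 for miR-205-5p, 1 each for miR-219-5p and miR-194-5p and 0 for miR-192-5p, which ranged from -0.45 (scaling over all mouse probes) to -0.04 (no scaling). The 108 include the fits without the detection filter and without rows at the floor. Those leave each of these differences as in the main fit and could not change a sign. The median of all tested miRNAs moved by 0.28 without scaling and by -0.11 with scaling over all probes. Calls over all tested miRNAs ranged from 0 to 34 where the main value was 1: 34 without scaling, 7 without a floor, 5 and 4 without IL-6 replicates 1 and 2, 3 from the scanner's totals and 3 without rows at the floor (297 tested, chosen after seeing the data), and 0 with normexp (offset 50), the series table, the column block or the replicate block. With the replicate block miR-192-5p was at -0.43 (limma adjusted p = 0.220), but the deviations of same-numbered arrays correlated at 0.0582 and -0.3375, so the numbers were not taken as pairs. With only 2 IL-6 arrays on 1 slide row, small differences cannot be resolved.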
